A study of Mus musculus with 16 samples.

Results

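The 6 arrays described here compare splenic CD4+ T cells that lack the kinase IKK2 with Cre control cells while nephritis is present. They were chosen by sample title, and are 6 of the 16 arrays of the study. The IKK2 knockout group holds 3 arrays from IKK2fl/fl mice crossed with CD4cre mice, and the Cre group holds 3 arrays from mice that carry CD4cre. Both groups are male mice of 8 to 10 weeks that received 2.5 mg of nephrotoxic sheep serum for each g of body weight into the peritoneum and were sampled on day 10. Cre under the CD4 promoter acts from the thymocyte stage at which CD4 is first made, so that the floxed gene can also be lost in other cells of that lineage. CD4+ cells were enriched from spleen with an isolation kit and then sorted, and the labels state that deletion was assessed by PCR in sorted splenocytes. Each sample was hybridised to its own 1-colour (Cy3) Agilent array. A further 6 arrays, 3 IKK2 knockout and 3 Cre arrays of mice without nephritis, are used below for comparison. The labels do not tie the replicates to separate animals, and p values therefore describe only how much these replicate arrays vary, which may include technical variation alone.

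IKK2, encoded by Ikbkb, is a catalytic subunit of the IkB kinase complex. After a T cell receptor or cytokine signal the complex phosphorylates IkB proteins, which are then degraded, and canonical NF-kB dimers move to the nucleus. There they activate genes for survival, for the growth factor IL-2 and its receptor, for lymphotoxins, and for their own inhibitors. A noncanonical branch acts through the kinase NIK and the subunits made from Nfkb2 and Relb, and both of those genes are themselves targets of the canonical branch. In CD4+ T cells NF-kB is also known to take part in the formation of regulatory T cells. Nephrotoxic serum nephritis is a model of immune-mediated glomerular disease in which CD4+ T cells take part.

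The NF-kB target genes whose levels are given first are introduced by their promoters, because these letters show which of them carry the DNA element read by NF-kB close to their start. Each sequence runs 5′ to 3′ from 250 bases before to 50 bases after an annotated start, from RefSeq on build GRCm38.p6, and the capitals mark matches to the kB consensus of 10 letters, searched on both strands, with overlapping matches merged. For Nfkb2, which has several annotated starts, the first is shown.
Nfkbia, chr12:55492598-55492897, minus strand: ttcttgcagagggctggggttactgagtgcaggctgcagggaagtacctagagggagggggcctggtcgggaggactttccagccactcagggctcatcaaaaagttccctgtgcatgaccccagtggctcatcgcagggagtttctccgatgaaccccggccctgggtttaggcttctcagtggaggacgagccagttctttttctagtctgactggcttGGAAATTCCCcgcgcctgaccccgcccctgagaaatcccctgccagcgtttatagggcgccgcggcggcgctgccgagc
Tnip1, chr11:54962891-54963190, minus strand: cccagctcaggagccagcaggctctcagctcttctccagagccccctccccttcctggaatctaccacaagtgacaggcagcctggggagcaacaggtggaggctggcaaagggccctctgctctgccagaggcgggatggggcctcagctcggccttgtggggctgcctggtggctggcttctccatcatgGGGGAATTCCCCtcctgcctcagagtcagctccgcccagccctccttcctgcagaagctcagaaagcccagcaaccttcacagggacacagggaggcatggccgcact
Nfkb2, chr19:46304487-46304786, plus strand: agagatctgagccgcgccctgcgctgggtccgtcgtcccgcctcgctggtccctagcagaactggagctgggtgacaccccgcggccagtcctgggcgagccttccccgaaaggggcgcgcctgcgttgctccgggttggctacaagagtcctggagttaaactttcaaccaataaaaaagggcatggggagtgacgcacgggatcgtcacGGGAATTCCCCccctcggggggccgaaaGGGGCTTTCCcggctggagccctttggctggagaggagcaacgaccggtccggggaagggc
Ltb, chr17:35194257-35194556, plus strand: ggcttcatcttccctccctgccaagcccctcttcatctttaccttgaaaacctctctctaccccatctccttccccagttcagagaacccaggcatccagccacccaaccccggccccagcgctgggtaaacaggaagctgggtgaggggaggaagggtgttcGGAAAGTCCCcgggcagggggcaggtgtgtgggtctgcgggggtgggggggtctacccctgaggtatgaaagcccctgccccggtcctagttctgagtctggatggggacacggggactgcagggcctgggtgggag
Il2ra, chr2:11642542-11642841, plus strand: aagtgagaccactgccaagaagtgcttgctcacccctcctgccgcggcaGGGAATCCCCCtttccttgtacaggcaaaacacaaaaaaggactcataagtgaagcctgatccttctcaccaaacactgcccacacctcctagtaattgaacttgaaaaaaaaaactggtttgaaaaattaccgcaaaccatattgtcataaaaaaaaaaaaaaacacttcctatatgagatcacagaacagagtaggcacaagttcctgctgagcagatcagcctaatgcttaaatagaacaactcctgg
Of the 9 target genes that were lower in the knockout, 8 had an entry in the promoter table and 5 of these held a match (62.5%), namely the 5 shown. Traf1, Il2 and Lta held none in this window, and Relb is named only. Of all NF-kB target genes on the list 15 of 27 held one (55.6%), against 11.8% of the 11708 tested genes with an entry. Over all called genes the share was 17.4% of 109 higher and 12.4% of 169 lower genes. A match is a description of these letters only.

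Levels are log2 processed intensities relative to the 75th percentile of the same array, so that 0 is the brightness of that percentile and 1 unit is a 2-fold change. Levels of different genes cannot be set against each other. Differences are knockout minus Cre, with the standard error (SE) of a limma model of all 16 arrays in 6 groups. A gene was called when its p value, adjusted by Benjamini-Hochberg over the 14671 genes tested, was under 0.05. All 6 arrays lay on 1 slide. By the barcodes in the file headers, the 3 knockout arrays and Cre replicate 1 were in row 1 of it, and Cre replicates 2 and 3 in row 2. Row thus partly follows genotype, and its part in the differences was not tested. T cell markers were measured on every array: all 14 were tested, none passed, and their summed linear level was 1800 to 1900 in knockout arrays and 1830 to 2060 in Cre arrays. Cd4 differed by -0.04 (adjusted p = 0.874) and Cd3e by -0.03 (adjusted p = 0.911).

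Markers of other spleen cells were present and uneven. The summed level of 16 B cell markers was 23.0 to 35.3 in knockout arrays and 14.7 to 26.6 in Cre arrays, with a median difference of 0.65 and no marker past the threshold. The summed level of 9 class II antigen presentation genes was 139 to 198 in knockout arrays and 23.1 to 206 in Cre arrays, and that of 9 neutrophil markers was 12.4 to 74.0 in knockout arrays and 3.70 to 23.6 in Cre arrays. The summed level of 8 erythroid markers was 270 to 325 in knockout arrays and 26.4 to 1320 in Cre arrays. Relative to untreated Cre arrays, they averaged 0.30, 2.58 and 5.59 on Cre replicates 1, 2 and 3. The 7 plasma cell markers averaged 2.43 on Cre replicate 1, against 0.43 and 0.97 on the other Cre arrays and 0.25 to 0.63 on the knockout arrays. Cre replicate 1 stood apart in class II genes too. These averaged -0.20 on it against untreated Cre arrays, against 2.49 and 1.81 on the other Cre arrays and 2.01 to 2.48 on the knockout arrays. Across genes, this array correlated at 0.984 to 0.986 with the untreated Cre arrays and at 0.971 and 0.982 with the arrays of its own group. Counts below are also given without it, and from a fit with the mean of the B cell markers as a covariate. Relative to untreated Cre arrays, these markers averaged 1.66 to 2.16 on knockout arrays and 0.51 to 1.61 on Cre arrays, without overlap. That fit therefore cannot separate these cells from the knockout, and their part in the results was not tested. In bulk RNA, fewer cells of a type and less RNA per cell cannot be told apart.

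The targeted gene was measured first. Ikbkb read 3.02, 2.95 and 2.91 in knockout arrays, against 3.27, 3.45 and 3.18 in Cre arrays. Every knockout array lay below every Cre array, but the fall of 0.34 (SE 0.11) did not pass in limma (adjusted p = 0.134), and an exact two-sided permutation test gave p = 0.1, the smallest that 3 against 3 arrays allow. The sources used here do not place the probe inside the deleted exons, and if it lies elsewhere in the transcript its level is no check of the deletion. The other members of the complex overlapped between groups. Chuk, which encodes the catalytic subunit IKK1, differed by -0.10 (adjusted p = 0.502) and Ikbkg, which encodes the regulatory subunit NEMO, by -0.10 (adjusted p = 0.598). Without nephritis Ikbkb differed by -0.24 in the IKK2 knockout (adjusted p = 0.162). A NEMO knockout group under nephritis, on another slide, was set against the same Cre arrays, and 48.4% of all genes were called. Ikbkb, which is not its targeted gene, differed there by -0.48 (adjusted p = 0.00653).

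Of 14671 genes tested, 377 were called in the knockout under nephritis (2.57%), 144 higher (0.982%) and 233 lower (1.59%). At least a 2-fold change was reached by 59 of the higher and 63 of the lower genes. The 377 called genes had no overlap between the 3 knockout and the 3 Cre arrays, which held for 24.9% of all tested genes. The median difference of all genes was -0.03. With the 75th percentile taken over probes above background on all arrays, 187 of 365 calls were higher (51.2%), against 38.2% here. With slide as a block 399 genes were called, and 73 in a fit of the 8 arrays of that slide alone. Leaving out knockout replicate 2 left 121 calls, leaving out any other single array left 204 to 252, and leaving out Cre replicate 1 gave 252. With the mean of the B cell markers as a covariate 86 genes were called.

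Genes that NF-kB is known to activate were among those that fell. Of 34 NF-kB target genes tested, 9 fell (26.5%, against 1.59% of all genes) and none rose, and 25 did not pass. The list median was -0.07, beside -0.03 for all genes. This list and those below were chosen with earlier results of these data known, so their counts are descriptions and no test of the lists. The shares of all genes to set beside them are 2.57% called, 0.982% higher and 1.59% lower. Il2, the T cell growth factor, read -2.71, -4.08 and -3.45 in knockout arrays, against -1.67, -1.67 and -1.96 in Cre arrays. Il2ra, the high-affinity chain of the IL-2 receptor, read -0.81, -1.17 and -1.28 in knockout arrays, against 0.21, 0.67 and 1.01 in Cre arrays. In both genes the arrays of the groups were separated by more than the spread within the knockout group for Il2ra and by less for Il2, where knockout replicate 2 was lowest. Il2 fell by 1.64 (SE 0.29, adjusted p = 0.0131) and Il2ra by 1.72 (SE 0.26, adjusted p = 0.00605). Ltb, which encodes lymphotoxin beta, read 7.70, 7.55 and 7.66 in knockout arrays, against 8.41, 8.32 and 8.19 in Cre arrays. Lta, which encodes lymphotoxin alpha and lies beside it, read 0.94, 0.69 and 0.89 in knockout arrays, against 1.60, 1.53 and 1.39 in Cre arrays. Both lymphotoxin genes fell by 0.67 (SE 0.10), with adjusted p = 0.00605 for Ltb and 0.00502 for Lta. These 4 genes kept their calls whichever single array was left out.

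Called genes also encode inhibitors and subunits of NF-kB itself. Tnip1, which encodes an inhibitor that works with the deubiquitinase A20, read 5.17, 5.16 and 5.20 in knockout arrays, against 5.91, 5.79 and 5.66 in Cre arrays, a fall of 0.61 (SE 0.09, adjusted p = 0.00642). A second Tnip1 probe gave -0.60. Relb read 2.58, 2.28 and 2.46 in knockout arrays, against 3.07, 3.33 and 2.98 in Cre arrays, a fall of 0.69 (SE 0.12, adjusted p = 0.0152). Its second probe gave -0.68. Nfkb2 read 1.38, 1.01 and 1.09 in knockout arrays, against 1.70, 1.96 and 1.77 in Cre arrays, a fall of 0.65 (SE 0.13, adjusted p = 0.0227). The groups did not overlap in any of these genes, and knockout replicate 1 was the closest of its group to the Cre arrays for Relb and Nfkb2. Nfkbia, which encodes the inhibitor IkB alpha, fell by 0.32 (SE 0.07, adjusted p = 0.0409), the adaptor gene Bcl10 by 0.41 (SE 0.09, adjusted p = 0.0409) and the adaptor gene Traf1 by 0.45 (SE 0.09, adjusted p = 0.0282). Traf3, an adaptor that restrains NIK, fell by 0.55 (SE 0.10, adjusted p = 0.0131). Target genes that did not pass included Tnfaip3, which encodes A20 (0.20, adjusted p = 0.543), Birc3 (-0.19, adjusted p = 0.39) and Nfkb1 (-0.21, adjusted p = 0.344). The subunit gene Rela (-0.21, adjusted p = 0.181) and Map3k14, which encodes NIK (0.32, adjusted p = 0.145), did not pass either.

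By list, 3 of 28 canonical signalling genes fell (Nfkbia, Tnip1 and Bcl10) and none rose, with a median of -0.10. Of 19 noncanonical genes Traf3, Relb and Nfkb2 fell, and Tnfrsf12a, the receptor for the cytokine TWEAK, rose by 0.76 (SE 0.17, adjusted p = 0.0385). The count of lower target genes was 5 without knockout replicate 2 or without Cre replicate 2, and 8 without Cre replicate 1. The calls of Nfkbia and Bcl10 were lost whichever array was left out (adjusted p = 0.0567 to 0.158). Without knockout replicate 2, Relb, Nfkb2, Traf3, Traf1 and Tnfrsf12a were not called (adjusted p = 0.0753, 0.104, 0.0682, 0.116 and 0.141). Without Cre replicate 2, Relb, Nfkb2, Traf1 and Tnfrsf12a were not called (0.0557, 0.0832, 0.102 and 0.12). Without knockout replicate 3, Nfkb2, Traf1 and Tnfrsf12a were not (0.0779, 0.0972 and 0.101), without Cre replicate 3 Nfkb2 and Tnfrsf12a were not (0.0534 and 0.0754), and without Cre replicate 1 Traf1 was not (0.0921). With the B cell covariate 1 of the target genes was called, and on the slide of the comparison alone 1 was, Il2ra. When only these 2 groups were fitted, no target gene fell and 1 rose, Nfkbiz, which encodes the regulator IkB zeta and is named here after its values were seen. Nfkbiz read 0.95, 0.84 and 0.94 in knockout arrays, against 0.12, 0.16 and 0.22 in Cre arrays, a difference of 0.75 (SE 0.18) that lay just outside the threshold with all groups in the fit (adjusted p = 0.0502) and inside it with these 2 alone (adjusted p = 0.0301). It was also called higher after normexp background correction and in the authors' deposited matrix, each beside 6 falls, and with probes above background on all 3 arrays of a group, beside 9.

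**Figure D1:**
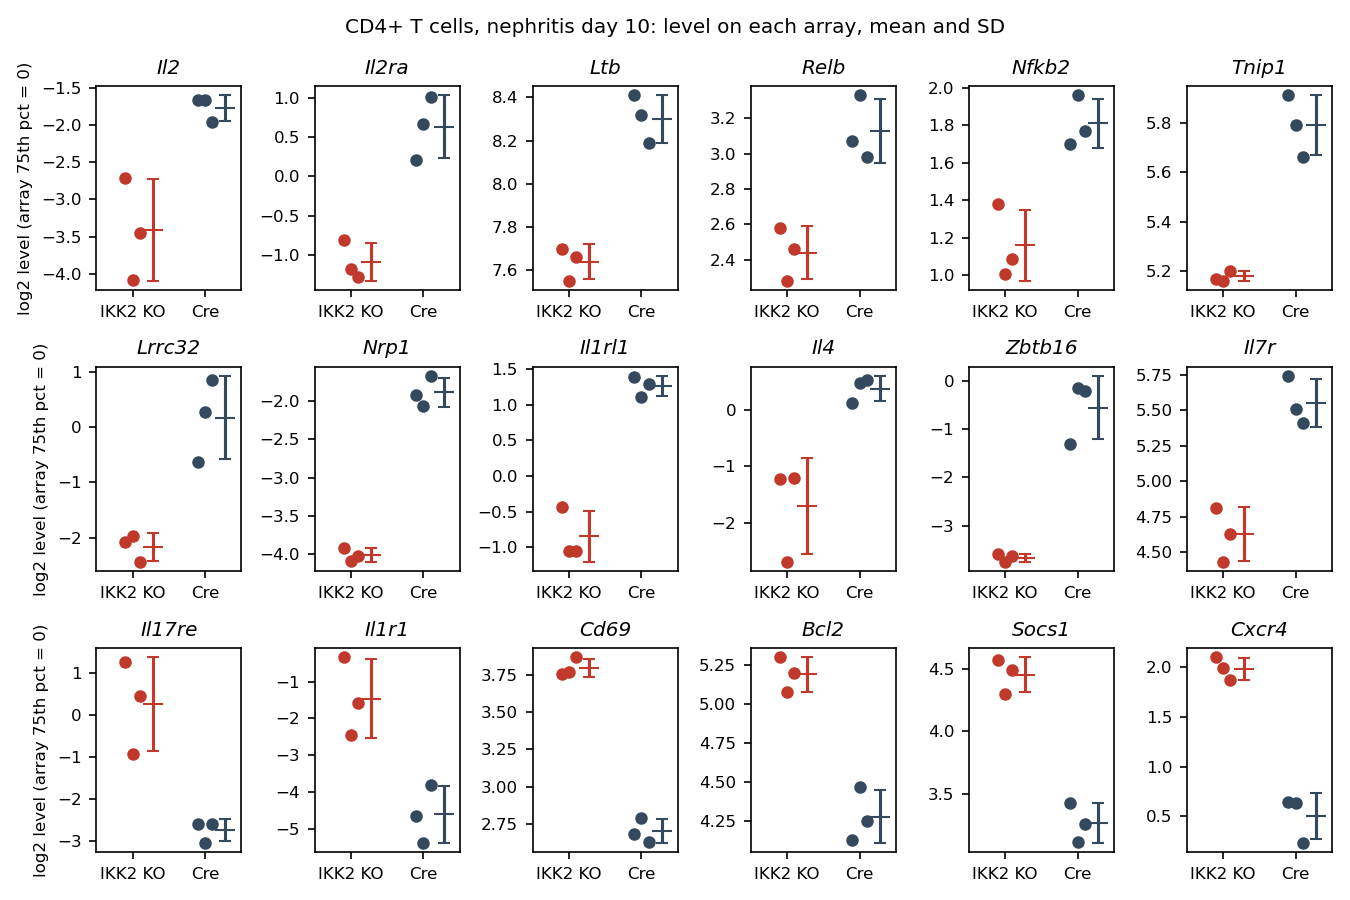
Log2 level (vertical axis, 0 is the 75th percentile of the array) of 18 genes on the 3 IKK2 knockout arrays (left, red) and the 3 Cre arrays (right, dark) under nephritis, with the mean and SD beside the points and a separate scale in each panel. The upper and middle rows hold genes that fell in the knockout, such as Il2ra at -0.81 to -1.28 against 0.21 to 1.01, and the lower row genes that rose, among which Il17re spread widely over the knockout arrays.

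Genes of cytokine signalling through the common gamma chain moved in both directions. Of 21 tested, Il2, Il2ra and Il7r fell and Socs1, Socs3 and Pim1 rose, and the median was -0.03. Il7r, the receptor chain for the survival cytokine IL-7, read 4.81, 4.43 and 4.63 in knockout arrays, against 5.74, 5.51 and 5.41 in Cre arrays, a fall of 0.93 (SE 0.14, adjusted p = 0.00605). Socs1, a feedback inhibitor of cytokine receptors, read 4.57, 4.30 and 4.49 in knockout arrays, against 3.43, 3.12 and 3.26 in Cre arrays, a rise of 1.18 (SE 0.20, adjusted p = 0.0122). The gap between the groups was wider than the spread of either group in both genes. Socs3, a related inhibitor, rose by 0.60 (SE 0.11, adjusted p = 0.0142) and the kinase gene Pim1 by 0.51 (SE 0.11, adjusted p = 0.0409). Socs3 lost its call without knockout replicate 2 (adjusted p = 0.0623) or 3 (adjusted p = 0.0571), and Pim1 whichever array was left out (adjusted p = 0.0564 to 0.123). Stat5a and Stat5b, whose products carry the IL-2 signal, differed by 0.04 (adjusted p = 0.925) and -0.06 (adjusted p = 0.701).

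Among 21 ligands and receptors of the TNF superfamily 4 fell, Lta, Ltb, Tnfsf11 and Tnfrsf1b, and 1 rose, Tnfsf8. Tnfsf8, the CD30 ligand, read 3.17, 3.02 and 2.95 in knockout arrays, against 2.41, 2.70 and 2.50 in Cre arrays, a rise of 0.52 (SE 0.08, adjusted p = 0.00821). Tnfsf11, which encodes RANKL, read -0.45, -1.42 and -1.19 in knockout arrays, against -0.24, 0.13 and 0.05 in Cre arrays, a fall of 1.0 (SE 0.22, adjusted p = 0.0409). Knockout replicate 1 lay nearest to the Cre arrays in Tnfsf11. Tnfrsf1b, the second TNF receptor, fell by 0.59 (SE 0.12, adjusted p = 0.0245). Tnfsf11 kept its call only without knockout replicate 1 and Tnfrsf1b only without Cre replicate 1 (adjusted p = 0.0519 to 0.153 without the other arrays).

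Of 25 regulatory T cell genes tested 8 fell in the knockout and 1 rose (36.0% called, against 2.57% of all genes). The median was -0.63, beside -0.03 for all genes. The 8 include Il2ra, given above, and Il1rl1, which also stands on the Th2 list and is given there. Lrrc32, which encodes GARP, the protein that holds latent TGF-beta on activated regulatory T cells, read -2.08, -1.97 and -2.44 in knockout arrays, against -0.63, 0.28 and 0.85 in Cre arrays. It fell by 2.34 (SE 0.34, adjusted p = 0.00605). Nrp1, a semaphorin receptor found on regulatory T cells of thymic origin, read -3.91, -4.09 and -4.02 in knockout arrays, against -1.92, -2.07 and -1.68 in Cre arrays. It fell by 2.12 (SE 0.32, adjusted p = 0.00605), with 2 of the knockout arrays above background. Cre replicate 1 had the lowest Lrrc32 level of its group and still lay above all knockout arrays. Ctla4, the inhibitory receptor, read -1.60, -1.54 and -1.73 in knockout arrays, against -1.04, -0.21 and -0.09 in Cre arrays, a fall of 1.18 (SE 0.27, adjusted p = 0.0424). Ikzf2, which encodes the factor Helios, read 0.03, -0.59 and -0.63 in knockout arrays, against 0.22, 1.20 and 1.52 in Cre arrays, a fall of 1.38 (SE 0.33, adjusted p = 0.0497). In Ikzf2, knockout replicate 1 and Cre replicate 1 lay closest to each other.

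Nt5e, which encodes the ectonucleotidase CD73, fell by 1.01 (SE 0.20, adjusted p = 0.0232) and Ikzf4, which encodes the factor Eos, by 0.63 (SE 0.14, adjusted p = 0.042), and of its further probes one gave -0.63 and the other 0.47. Foxp3, the factor that defines the lineage, read -0.92, -0.95 and -0.96 in knockout arrays, against -0.43, 0.50 and 0.88 in Cre arrays, a difference of -1.26 (SE 0.32) that did not pass (adjusted p = 0.0601). Il10, a cytokine these cells can make, differed by -1.08 and did not pass (adjusted p = 0.0957). Gpr83, a receptor also found on regulatory T cells, was well above background on all 3 knockout arrays and on no Cre array, and was at least 2.7-fold higher in the knockout (adjusted p = 0.0273). Here and below, such a bound sets the mean of the bright group against the lowest signal that counts as above background, and the probe's own level where that is higher. Gpr83 differed by 0.373 after normexp correction and by 0.745 in the authors' deposited matrix, so that its bound holds for the processed signal only. Lrrc32, Nrp1 and Il2ra kept their calls whichever array was left out. Ctla4 and Ikzf2 were called only without Cre replicate 1 (adjusted p = 0.0542 to 0.175 without the other arrays), and Nt5e only without knockout replicate 1 or Cre replicate 1 (0.0571 to 0.105 without the others). Ikzf4 and Gpr83 were called in no such fit (0.0506 to 0.121). The number of lower genes was 8 without Cre replicate 1, 5 without knockout replicate 1 and 4 without any other array, and 3 with the B cell covariate or on the slide of the comparison alone, and 2 when only these 2 groups were fitted.

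**Figure D2:**
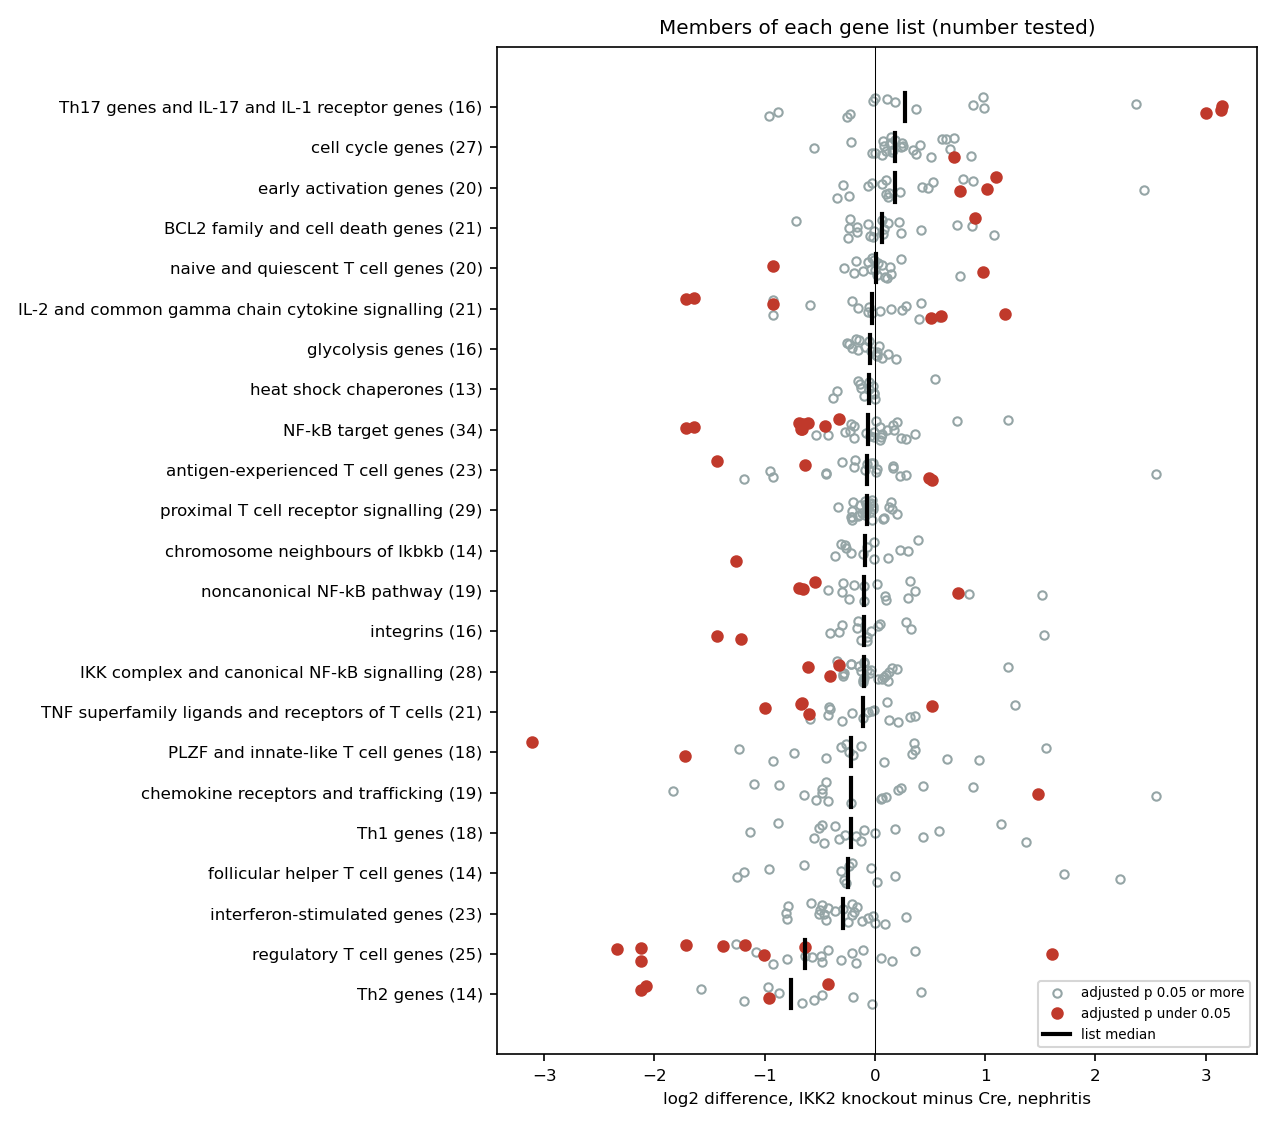
Log2 difference, IKK2 knockout minus Cre under nephritis (horizontal axis), of each tested member of 23 gene lists, ordered by list median (black bar) from the highest at the top, with called genes filled in red. The Th2 and regulatory T cell lists have the lowest medians, -0.77 and -0.63, and the list of Th17, IL-17 receptor and IL-1 receptor genes the highest, 0.27.

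Of 14 Th2 genes 4 fell (28.6%, against 1.59% of all genes) and none rose. Of the 14 differences 13 were negative, with a median of -0.77, and of all 14671 genes 8144 were negative. Il1rl1, the receptor for IL-33, read -0.44, -1.06 and -1.06 in knockout arrays, against 1.39, 1.11 and 1.29 in Cre arrays. It fell by 2.12 (SE 0.21, adjusted p = 0.000627), and its other probes gave -1.57 and -2.29. Il4, the cytokine that defines the lineage, read -1.22, -2.69 and -1.20 in knockout arrays, against 0.12, 0.48 and 0.52 in Cre arrays, a fall of 2.07 (SE 0.34, adjusted p = 0.00967). The groups were far apart in both genes, with knockout replicate 2 lowest for Il4. Gata3, the factor of the lineage, fell by 0.42 (SE 0.08, adjusted p = 0.0211) and Il17rb, a receptor chain for IL-25, by 0.96 (SE 0.17, adjusted p = 0.0122). Of the others, Il5, Areg and Ptgdr2 were above background on no array of either group, and all 3 are among the negative differences. The list median was -0.33 after normexp background correction and -0.43 in the authors' deposited matrix, where that of the regulatory T cell list was -0.47 and -0.52. Gata3 was not called without knockout replicate 2 or 3 (adjusted p = 0.091 and 0.0612) or Cre replicate 1 or 2 (0.0711 and 0.0592), and 3 Th2 genes were called without Cre replicate 1. The number of lower Th2 genes was 2 with the B cell covariate, and 1 on the slide of the comparison alone or when only these 2 groups were fitted.

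The deepest fall on any list was of a gene of innate-like T cells. Zbtb16 encodes PLZF, the factor of NKT cells and other innate-like T cells. It read -3.59, -3.76 and -3.64 in knockout arrays, against -1.31, -0.15 and -0.20 in Cre arrays. Cre replicate 1 was more than 1 log2 unit below the other Cre arrays and still well above the knockout arrays. The fall was 3.11 (SE 0.27, adjusted p = 0.000235) and its call was kept under every alternative setting tried. Xcl1, a chemokine made by such cells and by NK cells, read -1.74, -1.52 and -2.28 in knockout arrays, against -0.73, 0.15 and 0.21 in Cre arrays, a fall of 1.72 (SE 0.28, adjusted p = 0.00928). These were the 2 called genes of 18 on the list, whose median was -0.22.

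A few receptor genes of IL-17 and IL-1 signalling were far higher in the knockout. Of 16 genes on the list of Th17, IL-17 receptor and IL-1 receptor genes, Il1r1, Il17rc and Il17re rose and none fell, with a median of 0.27. Il17re, a receptor chain for IL-17C, read 1.26, -0.94 and 0.44 in knockout arrays, against -2.60, -3.06 and -2.60 in Cre arrays. Il1r1, the signalling receptor for IL-1, read -0.34, -2.46 and -1.58 in knockout arrays, against -4.64, -5.38 and -3.82 in Cre arrays. Il17rc, a receptor chain for IL-17A and IL-17F, read 0.66, -1.52 and -0.30 in knockout arrays, against -3.52, -3.71 and -3.36 in Cre arrays. The knockout arrays stood in 1 order in the 3 genes, with replicate 1 highest and replicate 2 lowest, and spanned more than 2 log2 units. The rises were 3.01 (SE 0.55, adjusted p = 0.0164) for Il17re, 3.15 (SE 0.58, adjusted p = 0.0169) for Il1r1 and 3.14 (SE 0.60, adjusted p = 0.0202) for Il17rc, and a second Il17rc probe gave 2.35. Il1r1 was above background on 1 of the 3 Cre arrays, so that its difference is set against a group mostly near background. After normexp correction the differences were 1.14 for Il1r1 and 1.82 for Il17rc, and only 1 gene of the list was called. None was called on the slide of the comparison alone or when only these 2 groups were fitted.

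Il17a, the cytokine that names the Th17 lineage, was above background on no array of either group. None of the 3 receptor genes was called without knockout replicate 1 (adjusted p = 0.0502 to 0.0627) or without Cre replicate 2 (adjusted p = 0.0585 to 0.0646). Without Cre replicate 1 or 3, 2 of them were called, and without knockout replicate 3, 1 was. Among the 15 genes with the largest rises, the sialyltransferase gene St6galnac2 (2.48, adjusted p = 0.0114) and the protease inhibitor gene Serpinb1a (2.11, adjusted p = 0.00928) shared the order of the knockout arrays, at -0.17, -1.93 and -1.24 for St6galnac2 and 1.86, 0.69 and 1.25 for Serpinb1a. With 3 arrays few orders are possible, and the share of all genes in this order was not counted. The shared order is therefore a description and does not tie these genes to the receptor genes. In Cre arrays St6galnac2 read -3.88, -3.38 and -3.51, and Serpinb1a read -1.16, -0.68 and -0.69. The 9 neutrophil markers averaged 3.02, 5.03 and 2.88 on knockout arrays, against 1.44, 1.21 and 3.79 on Cre arrays, relative to untreated Cre arrays, and their part in these rises was not tested.

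Several lists held no called gene, beside a share of 2.57% called over all genes, which leaves few calls to lists of this size. The share with an unadjusted p under 0.05 was 18.1% over all genes tested. None of 18 Th1 genes and none of 14 follicular helper genes passed, with 3 and 6 genes at an unadjusted p under 0.05 in limma. Ifng, the Th1 cytokine, differed by 1.14 (adjusted p = 0.236) and Tbx21, the Th1 factor, by -0.88 (adjusted p = 0.311). Under the alternative settings no Th1 gene was called, and 1 follicular helper gene fell with slide as a block. None of 29 genes of proximal T cell receptor signalling passed, with differences between -0.34 and 0.20 and 2 genes at an unadjusted p under 0.05. None of 23 interferon-stimulated genes, 16 glycolysis genes or 13 heat shock chaperones passed, with 5, 1 and 1 genes at an unadjusted p under 0.05. In those 3 lists other settings called nothing, except that 3 interferon-stimulated genes were lower without knockout replicate 3.

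Cxcr4, Cd69 and Bcl2, genes of T cell retention, activation and survival, rose. Cxcr4, the receptor for CXCL12, read 2.10, 1.99 and 1.87 in knockout arrays, against 0.64, 0.63 and 0.23 in Cre arrays. It rose by 1.48 (SE 0.14, adjusted p = 0.000627) and was the 1 called gene of 19 chemokine receptor and trafficking genes. Cd69, an early activation receptor that holds T cells in tissue, read 3.76, 3.77 and 3.87 in knockout arrays, against 2.68, 2.79 and 2.63 in Cre arrays, a rise of 1.10 (SE 0.12, adjusted p = 0.00105). Bcl2, which protects cells from mitochondrial death, read 5.30, 5.08 and 5.20 in knockout arrays, against 4.13, 4.47 and 4.25 in Cre arrays, a rise of 0.91 (SE 0.12, adjusted p = 0.00276). Bcl2 was the 1 called gene of 21 genes of its family and of cell death. The arrays of each group lay close together in these 3 genes and their calls held without any single array. Dusp1, a phosphatase that switches off MAP kinases, read 0.17, 0.79 and 0.30 in knockout arrays, against -0.46, -0.76 and -0.56 in Cre arrays, a rise of 1.01 (SE 0.19, adjusted p = 0.0203). Dusp5, a related phosphatase gene, rose by 0.77 (SE 0.18, adjusted p = 0.0471). With Cd69 these were the called genes of 20 early activation genes, whose median was 0.18. Fos (0.80, adjusted p = 0.198), Jun (0.89, adjusted p = 0.461) and Egr1 (0.06, adjusted p = 0.82) did not pass. Dusp5 was called only without knockout replicate 3 (adjusted p = 0.0642 to 0.17 without the other arrays), and Dusp1 was not called without knockout replicate 2 (0.083) or Cre replicate 2 or 3 (0.0759 and 0.052), so that 1 to 3 of these genes were called in such fits.

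Of 16 integrin genes 2 fell. Itgb1, the beta 1 chain, read 0.89, 0.75 and 1.03 in knockout arrays, against 2.39, 2.32 and 2.26 in Cre arrays, a fall of 1.43 (SE 0.19, adjusted p = 0.00298), and a second probe gave -1.09. Itgb3, the beta 3 chain, read 4.10, 3.84 and 3.88 in knockout arrays, against 5.22, 5.18 and 5.08 in Cre arrays, a fall of 1.22 (SE 0.14, adjusted p = 0.0014). Its second probe gave -0.28 with an unadjusted p of 0.0773. Itgb3 is also a platelet gene and stands among the 8 platelet markers, of which 7 had a positive difference and Itgb3 alone a negative one. The median difference of these markers was 1.09, Pf4 differed by 1.66 (adjusted p = 0.261), and their part in the fall of Itgb3 was not tested. Among 23 genes of antigen-experienced T cells Itgb1 and S100a10 (-0.64, SE 0.11, adjusted p = 0.0108) fell, and Ifngr1 (0.49, SE 0.09, adjusted p = 0.0199) and Tnfsf8 rose. Of 20 genes of naive T cells Il7r fell and Igfbp4, an insulin-like growth factor binding protein, rose by 0.98 (SE 0.18, adjusted p = 0.0178), while Ccr7 (0.24, adjusted p = 0.365) did not pass. S100a10 was not called without knockout replicate 2 (adjusted p = 0.0563), Ifngr1 not without knockout replicate 1 or 2 (0.0685 each) or Cre replicate 3 (0.0575), and Igfbp4 not without knockout replicate 2 or 3 (0.0727 and 0.0571) or Cre replicate 3 (0.0567). Of 27 cell cycle genes E2f1 rose by 0.72 (SE 0.10, adjusted p = 0.00368).

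The 15 genes with the largest falls also held several that no list covers. Trpm6, which encodes a magnesium channel, read -4.65, -4.75 and -3.77 in knockout arrays, against -0.96, -0.96 and -1.08 in Cre arrays, a fall of 3.39 (SE 0.35, adjusted p = 0.000877). Tmem273 read -3.74, -3.85 and -3.68 in knockout arrays, against -0.63, 0.35 and -0.23 in Cre arrays, a fall of 3.59 (SE 0.30, adjusted p = 0.000215). The knockout arrays lay at least 2 log2 units below every Cre array in both. Nrn1, which encodes neuritin, fell by 2.15 (SE 0.23, adjusted p = 0.000877) and Zbtb32, a zinc finger repressor of T cell cytokine genes, by 2.01 (SE 0.27, adjusted p = 0.00338). Mmp9, which encodes gelatinase B, fell by 2.76, Tfr2, a transferrin receptor, by 2.35, Cyb561, a cytochrome b561, by 2.10, and the small GTPase gene Arl4d by 1.98. Gcnt1, a glycosyltransferase that builds core 2 O-glycans, had the largest fall, 4.17 (SE 0.69, adjusted p = 0.00994), but it was above background on 1 knockout array, its other probe gave 0.19, and its call was lost without knockout replicate 2 (adjusted p = 0.052). The size of these falls moved with the treatment of background: after normexp correction and in the authors' deposited matrix Gcnt1 differed by -1.88 and -2.59, Trpm6 by -1.61 and -2.36, Mmp9 by -0.77 and -1.34, and Cyb561 by -0.71 and -1.15. Trpm6, Mmp9 and Tfr2 were also above background on 1 knockout array each, and Cyb561 on 2. Prg4, which encodes lubricin, fell by 2.01 on the probe used and differed by -0.15 on the other. The call of Tfr2 was lost without knockout replicate 1 (adjusted p = 0.0575) or 3 (0.0572) or Cre replicate 1 (0.056) or 3 (0.0512).

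Several of the largest rises were of genes best known from other tissues. Sycp1, a gene of the meiotic synaptonemal complex, read -3.10, -3.19 and -2.74 in knockout arrays and was above background on no Cre array, which makes it at least 2.63-fold higher (adjusted p = 2.84e-06). Klk1b22, a kallikrein gene, read 0.38, 2.06 and 2.42 in knockout arrays, against -2.97, -1.59 and -1.66 in Cre arrays, a rise of 3.70 (SE 0.48, adjusted p = 0.00276). It belongs to a family of near-identical genes that a probe may not tell apart. Drc1, a gene of the dynein regulatory complex of cilia, read 5.54, 5.33 and 5.13 in knockout arrays, against 2.24, 2.98 and 3.20 in Cre arrays, a rise of 2.52 (SE 0.35, adjusted p = 0.00431). In each of these genes all knockout arrays lay above all Cre arrays, which was a condition for naming the largest changes. Also above background on all knockout arrays and on no Cre array were the lectin gene Cd209c (at least 3.77-fold higher), the asialoglycoprotein receptor gene Asgr1 (at least 3.01-fold), the tumour suppressor gene Cdkn2a (at least 2.98-fold, with 0.08 on its other probe) and the uridine phosphorylase gene Upp1 (at least 2.83-fold). Havcr1, which encodes TIM-1, rose by 2.60 (SE 0.57, adjusted p = 0.0391) and AA467197 by 2.39 (SE 0.51, adjusted p = 0.0349). Havcr1 was above background on 1 Cre array. After normexp correction Sycp1 differed by 0.63, Cd209c by 0.66, Cdkn2a by 0.55, Upp1 by 0.50, Asgr1 by 0.47 and Havcr1 by 0.62, so that the bounds hold for the processed signal only. The calls of Cd209c, Cdkn2a, Upp1, Havcr1 and AA467197 were lost without knockout replicate 2 (adjusted p = 0.0571 to 0.147). Cdkn2a was also lost without knockout replicate 1 or Cre replicate 1, Upp1 and Havcr1 without any array but Cre replicate 3, and AA467197 without any array.

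Without nephritis, the knockout was compared with Cre on arrays of which none is shared with the comparison above. There 2136 genes were called (14.6%), 10.0% of all tested genes higher and 4.53% lower. Markers of other spleen cells were among the higher genes: 13 of 16 B cell markers rose (median 2.34), as did 7 of 9 class II genes (median 3.10), 10 of 14 myeloid markers (median 2.10) and 7 of 10 markers of CD8 T and NK cells (median 1.56, with 1 lower). The summed level of the B cell markers was 26.0 to 31.9 in knockout arrays and 9.46 to 11.7 in Cre arrays, and that of the class II genes 178 to 238 in knockout arrays and 21.1 to 45.5 in Cre arrays. None of the 14 T cell markers passed. Of the 377 genes called under nephritis 193 were also called without it and in the same direction (51.2% of the calls under nephritis and 9.0% of those without), 82 higher and 111 lower, and 6 were called in opposite directions. The 193 became 117, 84 and 127 without knockout replicates 1, 2 and 3, and 141, 124 and 129 without Cre replicates 1, 2 and 3. The number was 0 with the B cell covariate, 98 with slide as a block, 106 when only the groups compared were fitted, 109 when dim probes were kept and 112 after normexp correction. Slide differed here: the untreated Cre arrays were all on a second slide, with 1 of the 3 untreated knockout arrays. Il2 differed by -1.67, Ltb by -0.50, Lrrc32 by -1.98, Zbtb16 by -2.73, Il4 by -3.29, Il7r by -1.27, Il17re by 2.76 and Il1r1 by 3.05 without nephritis, all called there, with 1 Cre array above background for Il1r1. Sycp1 was above background on no untreated Cre array and on all 3 untreated knockout arrays. In each of these genes, Sycp1 included, the knockout lay on the same side of Cre in both conditions, and the test of the difference between conditions did not pass.

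**Figure D3:**
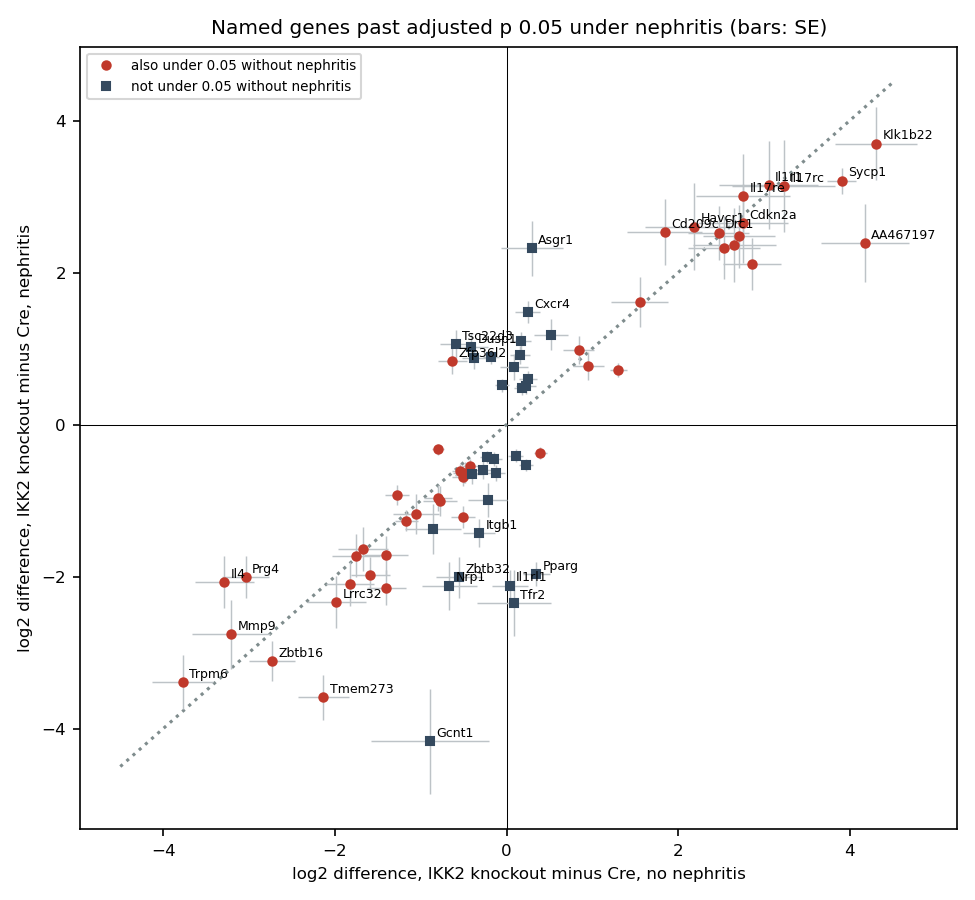
Log2 difference, IKK2 knockout minus Cre, under nephritis (vertical axis) against the same difference without nephritis (horizontal axis) for the named genes called under nephritis, with SE as bars and a dotted line where both are equal. Red points were also called without nephritis, and squares were not. Zbtb16, Il17rc and Il1r1 lie near the line, and Pparg and Il1rl1 lie far below it, at differences of 0.35 and 0.04 without nephritis that did not pass.

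Of the genes called under nephritis 178 were not called without it, but the difference between conditions, tested directly, passed for 25 of the called genes. That number was 43 without Cre replicate 1, 7 and 8 without Cre replicates 2 and 3, 27 without knockout replicate 1, and 4 without knockout replicate 2 or 3. It was 0 with the B cell covariate, 2 with the replicate number as a block, 4 when dim probes were kept or only the groups compared were fitted, 5 after normexp correction, 10 in the authors' deposited matrix, 13 with slide as a block and 45 with probes above background on all 3 arrays of a group. Over all genes that test called 166 (1.13%), 44 with a higher (0.3%) and 122 with a lower difference (0.832%) under nephritis. Pparg, a nuclear receptor known in Th2 cells and in tissue regulatory T cells, read -2.93, -2.82 and -2.90 in knockout arrays, against -1.10, -0.83 and -0.81 in Cre arrays, a fall of 1.97 (SE 0.16, adjusted p = 0.000215). Without nephritis it read -2.40, -2.52 and -2.68 in knockout arrays, against -2.99, -2.71 and -2.93 in Cre arrays, a difference of 0.35 (adjusted p = 0.168) with no overlap. The Cre arrays under nephritis lay above those of the other groups, and the difference between conditions was -2.31 (SE 0.23, adjusted p = 0.00492). Il1rl1 had the same shape: without nephritis it read 0.08, -0.51 and 0.27 in knockout arrays, against -0.05, -0.14 and -0.08 in Cre arrays, and the difference between conditions was -2.15 (SE 0.29, adjusted p = 0.0206). The level in Cre arrays under nephritis stood above all others in both genes. The mitochondrial and ER membrane protein gene Cisd2 (-0.37, adjusted p = 0.0349, though 0.00 on its second probe) and Rprd1a, a regulator of RNA polymerase II (-0.53, adjusted p = 0.00689), also fell under nephritis and differed between conditions.

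The opposite shape, with only the knockout arrays under nephritis high, was seen in Cxcr4 and Cd69. Cxcr4 without nephritis read 0.67, 0.98 and 0.99 in knockout arrays, against 0.49, 0.86 and 0.55 in Cre arrays, and its difference between conditions was 1.24 (SE 0.20, adjusted p = 0.0314). Cd69 without nephritis read 2.84, 2.76 and 2.67 in knockout arrays, against 2.47, 2.89 and 2.42 in Cre arrays, and its difference between conditions was 0.94 (SE 0.17, adjusted p = 0.0381). The groups overlapped without nephritis in both. Tsc22d3, which encodes the glucocorticoid-induced protein GILZ, read 6.96, 7.0 and 7.01 in knockout arrays, against 6.09, 6.03 and 5.66 in Cre arrays, a rise of 1.06 (SE 0.19, adjusted p = 0.014). Zfp36l2, which encodes a protein that destabilises mRNAs, read 7.16, 7.25 and 7.29 in knockout arrays, against 6.56, 6.44 and 6.17 in Cre arrays, a rise of 0.84 (SE 0.17, adjusted p = 0.025). Without nephritis the knockout differed from Cre the other way, by -0.59 (adjusted p = 0.0586) for Tsc22d3 and -0.63 (adjusted p = 0.0288) for Zfp36l2. Stxbp4, which encodes a syntaxin-binding protein, rose by 0.89 (SE 0.09, adjusted p = 0.000877) and Tnnt3, a troponin T, by 0.88 (SE 0.14, adjusted p = 0.00967).

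Because slide and condition overlap in the test of the difference, it was also fitted with slide as a block. Only the untreated knockout group had arrays on both slides, with replicate 3 alone on the second. The slide effect thus rests on that single array, and this fit is a weak check. It called 38 genes. Pparg (-2.17, adjusted p = 0.0283), Il1rl1 (-2.48, adjusted p = 0.0361), Stxbp4 (1.09, adjusted p = 0.0478) and Tsc22d3 (1.89, adjusted p = 0.0478) were among them. Cxcr4 (1.12, adjusted p = 0.0942), Cd69 (1.02, adjusted p = 0.0746) and Zfp36l2 (1.64, adjusted p = 0.0566) were not. The 166 calls became 391 without Cre replicate 1, 15 without Cre replicate 2, 30 without Cre replicate 3, 21 without knockout replicate 2 and 9 without knockout replicate 3. Under nephritis Tsc22d3 lost its call without knockout replicate 2 or Cre replicate 3 (adjusted p = 0.0619 and 0.0504), Zfp36l2 without any array but Cre replicate 1 (0.0549 to 0.0931), and Cisd2 without any array but knockout replicate 1 (0.0791 to 0.112).

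**Figure D4:**
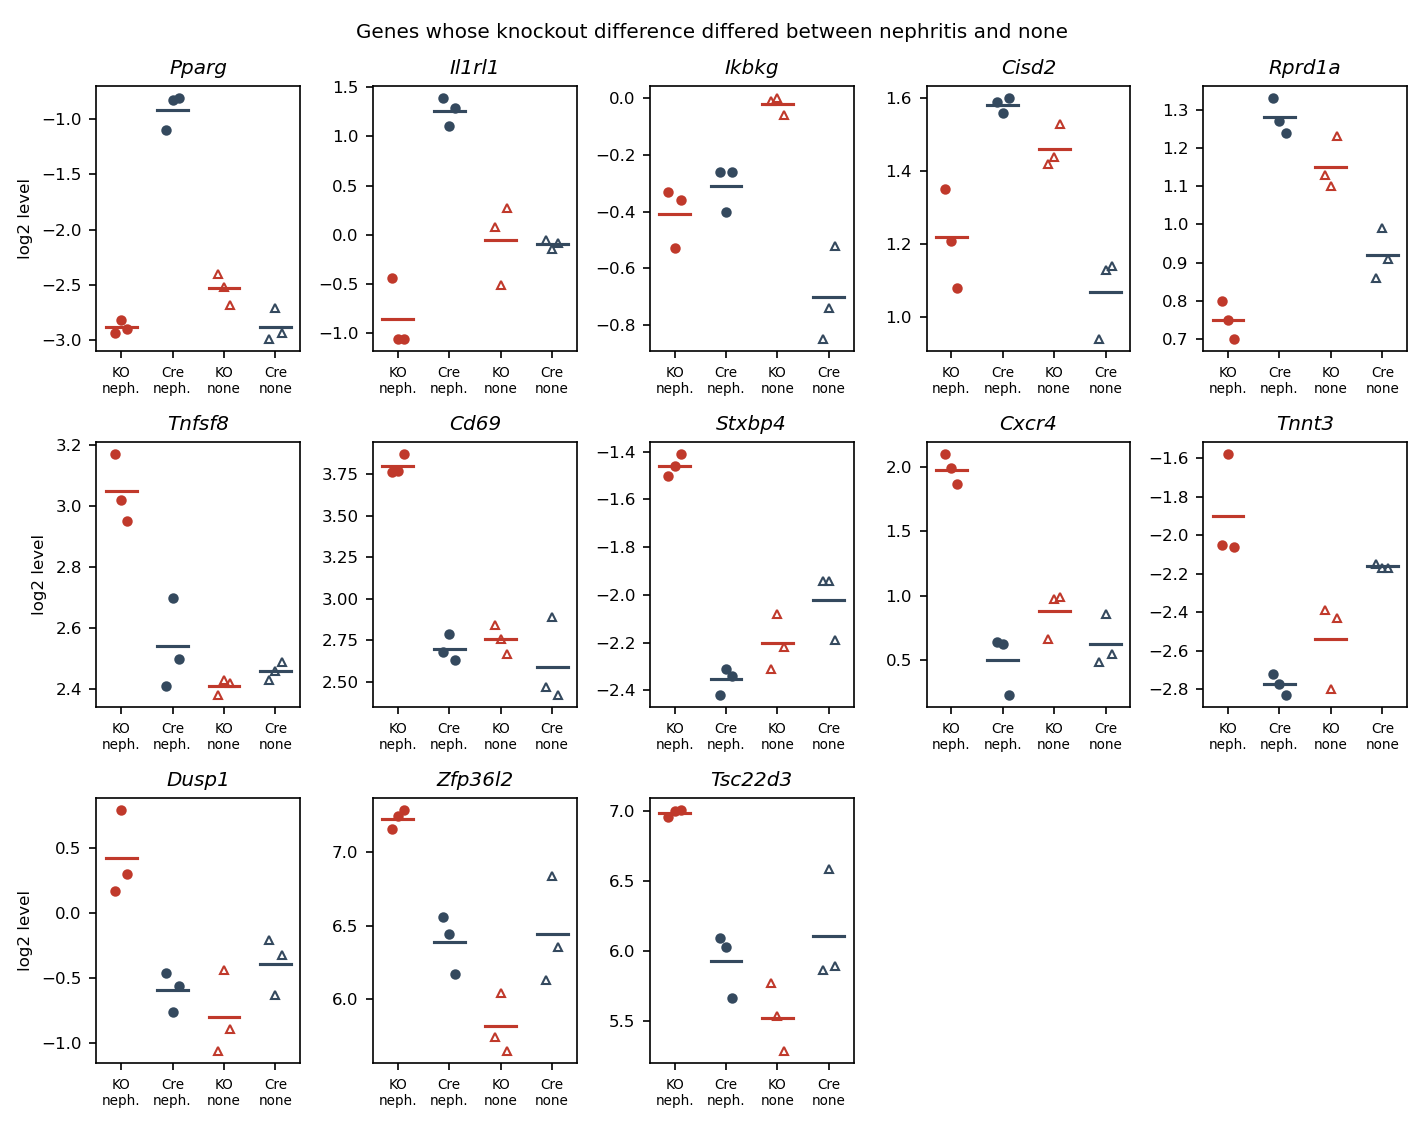
Log2 level (vertical axis, separate scale in each panel) of the 13 named genes whose knockout difference differed between conditions, in IKK2 knockout and Cre arrays under nephritis (filled circles) and without nephritis (open triangles), with a line at each mean. In the top row the Cre arrays under nephritis lie highest for Pparg, Il1rl1, Cisd2 and Rprd1a, and in the lower rows the knockout arrays under nephritis lie highest.

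Ikbkb lies on chromosome 8, and a run of called genes lies further along it. Of 759 tested genes on the chromosome 24 were called (3.16%). In windows of 30 tested genes counted outward from Ikbkb, which were chosen after the values were seen, 7 of the genes at places 31 to 60 on one side were called (23.3%), against 2.54% of the genes of all other chromosomes. Tti2, a partner of phosphatidylinositol 3-kinase related kinases, fell by 1.69 (SE 0.09, adjusted p = 2.84e-06). Wrn, the Werner syndrome helicase, fell by 1.08, Gsr, glutathione reductase, by 1.10, Saraf, a regulator of store-operated calcium entry, by 0.90 and Leprotl1 by 0.55. Fut10, a fucosyltransferase gene, rose by 2.33 (SE 0.42, adjusted p = 0.0142), with 4.64 on its other probe, and the acyltransferase gene Mboat4 rose by 1.47 (SE 0.31, adjusted p = 0.0305). All 7 genes differed in the same direction without nephritis. In the NEMO knockout under nephritis, on another slide and with 48.4% of all genes called, Saraf (-0.968), Leprotl1 (-0.598) and Tti2 (-0.549) were also called lower. There Gsr (0.438) and Fut10 (-2.089) were called in the opposite direction, and Wrn (0.104) and Mboat4 (-0.771) were not called. Nearer to Ikbkb, Hgsnat, a lysosomal acetyltransferase gene, fell by 1.26 (SE 0.14, adjusted p = 0.00103), and it was the 1 called gene of 14 tested neighbours on the list. It was also the 1 called gene of the 30 nearest on its side (3.33%). The list reaches less far on the other side, where 2 of the 30 nearest were called (6.67%). These were Agpat5 (-0.43, adjusted p = 0.00994) and 6820431F20Rik (0.55, adjusted p = 0.037). The 5 falls at places 31 to 60 were called without any single array. The count in that window was 5 without knockout replicate 2 or Cre replicate 2 and 6 without any other array, Mboat4 being called in none of these fits.

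**Figure D5:**
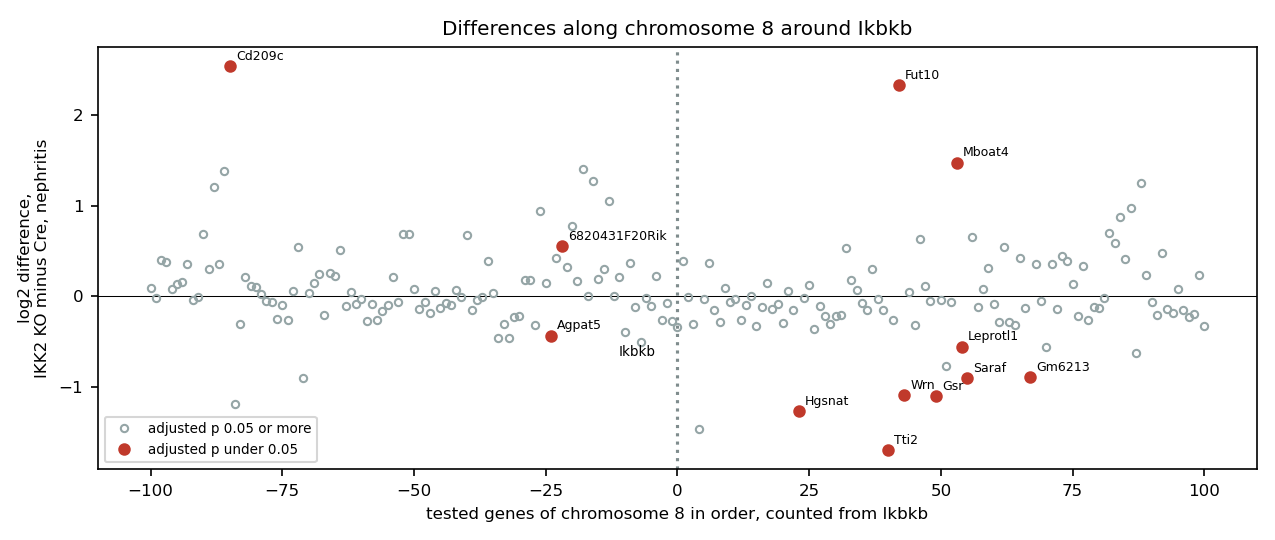
Log2 difference, IKK2 knockout minus Cre under nephritis (vertical axis), of tested genes of chromosome 8 in their order, counted from Ikbkb at 0 (horizontal axis, in genes), with called genes filled and named. The called genes Tti2, Fut10, Wrn, Gsr, Mboat4, Leprotl1 and Saraf stand together at places 40 to 55.

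The NEMO knockout under nephritis shares the Cre arrays with this comparison and was hybridised on another slide with 2 arrays, so values are only set side by side. Against Cre, Il2ra differed by -1.72 in the IKK2 knockout and by 1.0 in the NEMO knockout. Il2 differed by -1.64 in the IKK2 and 2.45 in the NEMO knockout, and Ltb by -0.67 in the IKK2 and -0.64 in the NEMO knockout. Il17re differed by 3.01 in the IKK2 knockout and by 6.31 in the NEMO knockout. Zbtb16 differed by -3.11 in the IKK2 and -1.34 in the NEMO knockout. In the NEMO comparison 48.4% of all genes were called.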

How the data were processed

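The 6 IKK2 knockout and Cre arrays under nephritis are part of 16 arrays in 6 groups. The authors deposited scanner files whose values are spot intensity; per the file headers, Agilent Feature Extraction had already background-subtracted the processed intensity. The version is 10.5 per the submitters' processing notes and 10.7.3.1 per the file headers. A second table the authors deposited holds log2 values for these arrays, and no source used here gives its method. Medians per column were 5.65 to 5.68, and each column correlated with its own array's log2 processed intensity (0.966 to 0.984), which fixes the scale as log2 without gene centring. How background was treated in it is unknown, and it was used as an alternative.

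Control spots and spots marked as outliers (103 to 246 per array) were left out, none was saturated, and 48.9% to 59.8% of spots were well above background. Of 55681 probes 27229 were given 1 symbol through RefSeq accessions (GRCm38.p6) and 28452 none; since the headers give mm9 as build, only names and gene order were taken from it. Levels are log2 processed intensity minus the array's own 75th percentile. A gene was represented by its brightest probe among those that rose well above background on 2 or more arrays, which left 14671 genes from 34938 probes. No called gene had a missing value on the 6 arrays. The 6 group means were estimated from all arrays together in limma 3.58.1 (lmFit, eBayes; R 4.3.3), with Python 3.11.15 (numpy 2.4.6, pandas 2.3.3, matplotlib 3.10.9) for tables and plots. The fit was tested on simulated data. P values are two-sided and adjusted by Benjamini-Hochberg; the number of arrays limits the precision. Named genes are list members past the threshold with defining genes of each list, the 15 largest changes in each direction among called genes without overlap of groups, and the 8 called genes with the smallest p for the difference between conditions. The members, the 23 gene lists and 10 marker lists were chosen with earlier results of these data known. Alternatives covered background, scaling, filter, slide, samples in the fit, replicate number, B cell markers, the authors' matrix and single arrays left out.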

Additional observations from a re-analysis of the deposited data

Results flagged for a closer look

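For 13 of the named genes the difference between knockout and Cre was itself different under nephritis and without it, tested as a contrast of its own in limma. Of the named genes, 8 had been picked for the smallest p in this same contrast. The number 13 is therefore a result of that choice and no evidence about the named genes. Over all tested genes the contrast called 166 (1.13%). The contrast was negative, with a lower knockout difference under nephritis, for Pparg (-2.31), Il1rl1 (-2.15), Ikbkg (-0.78), Cisd2 (-0.76) and Rprd1a (-0.76). It was positive for Tsc22d3 (1.65), Zfp36l2 (1.47), Dusp1 (1.43), Tnnt3 (1.25), Cxcr4 (1.24), Stxbp4 (1.07), Cd69 (0.94) and Tnfsf8 (0.56). Ikbkg, the NEMO gene, was 0.68 higher in the knockout than in Cre without nephritis (adjusted p = 0.00153) and differed by -0.10 under nephritis (adjusted p = 0.598). With slide as a block, whose effect rests on a single array, 6 of the 13 kept an adjusted p under 0.05, namely Pparg, Il1rl1, Stxbp4, Tsc22d3, Cisd2 (-0.83, adjusted p = 0.0478) and Rprd1a (-0.84, adjusted p = 0.0478). Dusp1 (1.52, adjusted p = 0.0986), Tnnt3 (1.14, adjusted p = 0.0896), Tnfsf8 (0.56, adjusted p = 0.131) and Ikbkg (-0.74, adjusted p = 0.0988) did not, nor did Cxcr4, Cd69 and Zfp36l2.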

How the results depend on the processing

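The 377 genes called under nephritis became 202 after normexp correction, 198 when dim probes were kept, 73 on the slide of the comparison alone, 49 when only these 2 groups were fitted and 86 with the B cell covariate, and 121 to 252 when single arrays were left out. The counts lay between 256 and 459 under the other alternatives. The 166 genes whose difference itself differed between conditions became 17 after normexp correction, 10 when dim probes were kept, 38 with slide as a block, 11 with only the groups compared, 2 with the B cell covariate, 31 with the authors' matrix and 9 to 391 without single arrays. With the replicate number as a block 266 and 8 genes were called. The deviations of same-numbered arrays correlated at -0.01, 0.02 and -0.17. With 3 arrays a group these correlations cannot decide whether the numbers pair the samples. No call of the 76 named and called genes reversed under any of these alternatives, and 11 kept their call under each, namely Cd69, Cxcr4, Cyb561, Hgsnat, Il1rl1, Pparg, Stxbp4, Sycp1, Tmem273, Trpm6 and Zbtb16. Of the 76 sizes, 27 were over 1.5 times smaller after normexp correction (median ratio 0.81) and 14 in the authors' matrix (0.86), and none was larger by that much. Under the other alternatives that kept all 6 arrays, no size moved by that much. In those that changed only the slide block, the replicate block or the arrays in the fit, this was fixed in advance. There the size is the same difference of group means, and only the SE and the p value can change. Calls were lost there all the same: of the 76, 23 kept their call on the slide of the comparison alone. With the B cell covariate 27 did, at a median size ratio of 0.98. The cause of these changes was not tested. The 3 arrays a group and dim probes limit the precision.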

Other observations

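The following called genes are on no list and were chosen after their values were seen. Txnip, which encodes a thioredoxin inhibitor, rose by 1.13 under nephritis (adjusted p = 0.00828) and differed by -0.27 without it, and the test of the difference between conditions passed (adjusted p = 0.0381). Ddit4, a stress-induced inhibitor of mTORC1, rose by 1.34 (adjusted p = 0.0122) and differed by -0.13 without nephritis, where the test of the difference did not pass (adjusted p = 0.0544). Fut7, a fucosyltransferase that makes selectin ligands, fell by 1.11 (adjusted p = 0.0122), differed by 0.44 without nephritis, and passed the test of the difference (adjusted p = 0.0381). Csf1, the macrophage growth factor, fell by 1.95 (adjusted p = 0.0238), and Hbegf, a growth factor of the EGF family, by 1.93 (adjusted p = 0.037). Hbegf also differed by -1.76 without nephritis.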
